A study of Drosophila melanogaster with 8 samples.

Results

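The mitochondrial ribosomal protein genes were taken as every gene whose symbol starts with mRpL or mRpS followed by a digit. The rule found 73 of the 17730 genes in the tables, 47 for the large subunit and 26 for the small one. They were compared between a pair of Drosophila melanogaster cell lines in a series about Polycomb proteins. The cells of ML-DmD17-c3, called D17-c3 here, come from imaginal discs, the larval pouches that form adult appendages. S2-DRSC is a stock of S2, a line of embryonic origin with features of hemocytes, the blood cells of the fly. Each line gave 4 libraries of polyadenylated RNA, every one from its own flask, and the labels name no treatment or engineered allele in either. Each line is 1 stock, so the comparison is between these stocks and carries every way in which they differ.

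The mitochondrial ribosome translates the few messages of the mitochondrial genome, which encode membrane subunits of the respiratory chain and of ATP synthase. Its RNAs come from the mitochondrial genome. All of its proteins are made from nuclear genes, translated in the cytosol and imported, so the members are nuclear messages scattered over the chromosomes. Part of the proteins belong to families that bacterial ribosomes also have, and the others are specific to mitochondria.

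Total expected counts ran from 76822525 to 110163700 per library, and the lowest count of any member in any library was 236. Levels between lines are given as CPM, the counts per 1000000 counts of the library, after TMM scaling of the library sizes, as mean ± SD over 4 libraries. Fold changes are log2 of D17-c3 over S2-DRSC with their SE, and a call is an adjusted p under 0.05 in edgeR's quasi-likelihood test, with Benjamini-Hochberg adjustment over the 11606 genes tested. The labelled origins were checked against markers. Among disc genes, en, hh, sd, vg, nub and esg were higher in D17-c3. There nub averaged only 0.274 CPM, vg 1.41 CPM and esg 2.05 CPM. The gene sd was also at 206 CPM in S2-DRSC, against 396 CPM in D17-c3. The disc gene ap was higher in S2-DRSC, at 4.99 CPM against 0.191 CPM, and Ubx was at or near 0 in both lines. Of 8 hemocyte genes, Hml, Pxn, vkg, Col4a1 and eater were higher in S2-DRSC. Hml and eater were still at 253 and 72.6 CPM in D17-c3, against 2995 and 131 CPM in S2-DRSC. The gene srp was higher in D17-c3 (401 against 321 CPM), and He and NimC1 averaged at most 6.69 CPM in a line and were not called.

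The messages of the mitochondrial ribosome lay at close levels in both lines. All 73 members passed the filter on low counts, and 41 of them (56.2%) were called, against 75.2% of all genes tested. Of these, 17 (23.3%) were higher in D17-c3, where the share over all genes was 39.1%, and 24 (32.9%) were higher in S2-DRSC, where it was 36.1%. Differences of at least 2-fold were fewer: 7 members (9.59%) were called with a fold that large, against 43.0% of all genes. The 7 were 2 members higher in D17-c3 (25.6% of all genes) and 5 higher in S2-DRSC (17.4% of all genes). The 4 CPM values of the lines did not overlap for 37 members (50.7%, against 71.6% of all genes). D17-c3 lay above in 15 of these (background 37.1%) and S2-DRSC in 22 (background 34.5%). In bulk RNA, fewer cells of a type and less RNA per cell cannot be told apart.

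The median log2 fold change of the members was -0.021, and the distance between their quartiles was 0.648. Over all genes tested the median was 0.043 and the quartile distance 1.717. The members spanned -1.382 to 1.357, and 57 of 73 (78.1%) lay within 1.5-fold of equality, a share that was 39.5% among all genes. Every one of the 32 members without a call lay within 1.5-fold. Which line took more of the calls varied with the scaling. With library totals only, the calls were 23 for D17-c3 and 18 for S2-DRSC, so D17-c3 took 56.1% of the calls in place of 41.5%. On log2(TPM + 1) without further scaling the split was 31 to 15, and D17-c3 took 67.4%. The share of members called was 56.2% with totals only and 63.0% on log2(TPM + 1). Over all genes it was 75.1% and 72.4%. These settings also moved the median of all genes, to 0.208 with totals only and to 0.179 on log2(TPM + 1). The median of the members less that of all genes was -0.064 as reported, -0.065 with totals only and 0.023 on log2(TPM + 1). Over 18 alternative settings, 15 members were called higher in D17-c3 and 15 higher in S2-DRSC in every one, and no called member changed sign in any of them.

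**Figure D1:**
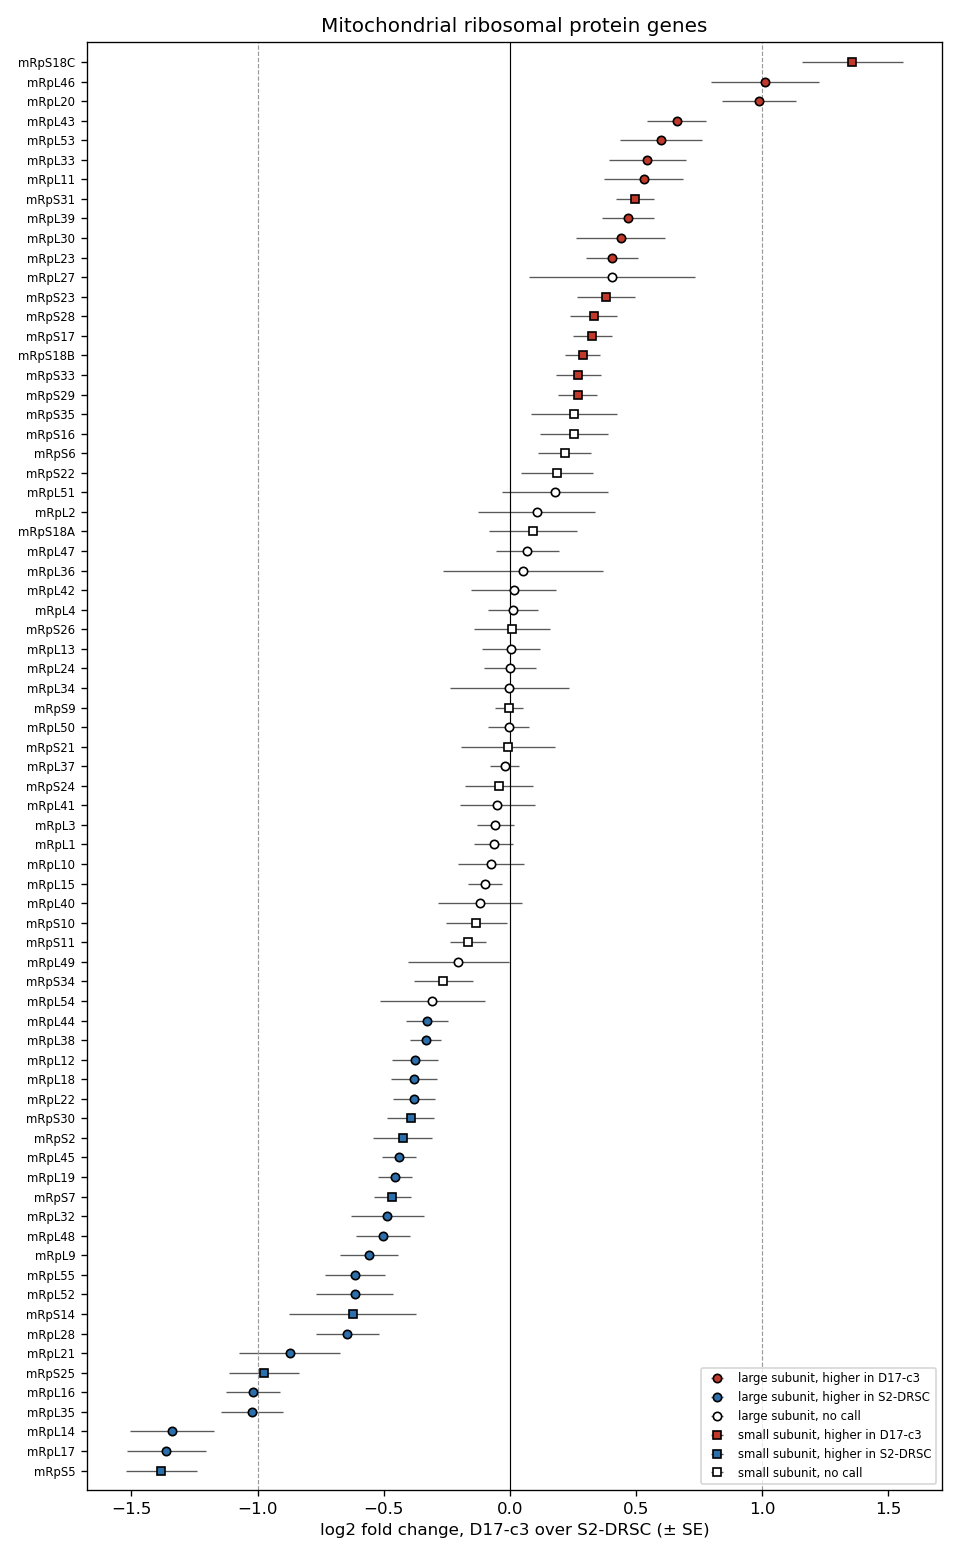
Log2 fold change of D17-c3 over S2-DRSC (x axis, with bars of 1 SE, n = 4 libraries per line) for each of the 73 mitochondrial ribosomal protein genes (y axis, in order of fold change). Circles are large subunit and squares small subunit genes, filled where called, and dashed lines mark 2-fold. Most genes lie between the dashed lines, with mRpS18C at 1.36 and mRpS5 at -1.38 as the ends.

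**Figure D2:**
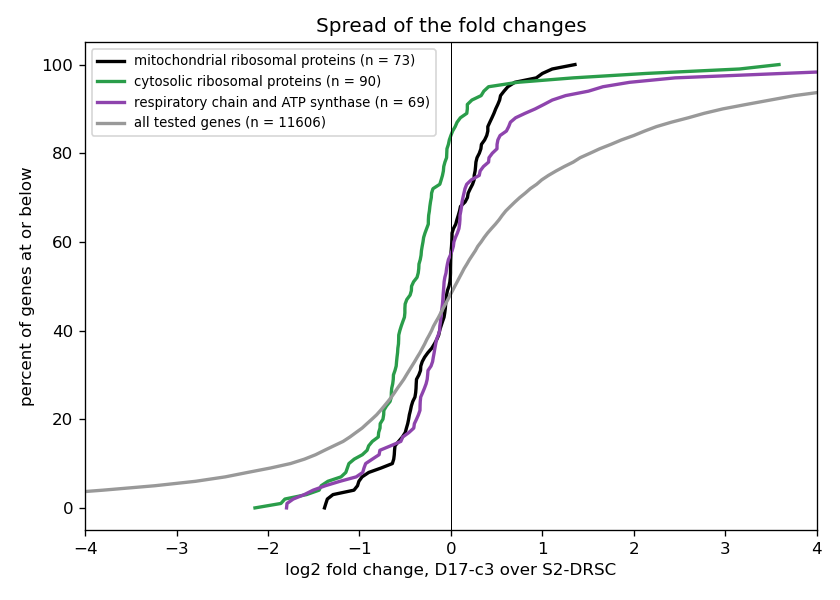
Percent of genes (y axis) with a log2 fold change of D17-c3 over S2-DRSC at or below the value on the x axis, which is drawn from -4 to 4, for the mitochondrial ribosomal proteins, cytosolic ribosomal proteins, nuclear subunits of the respiratory chain and ATP synthase, and all genes tested. The curve of the mitochondrial ribosomal proteins is steep around 0 (quartile distance 0.648). That of the cytosolic ones (quartile distance 0.56) lies to its left (median -0.43). The respiratory chain and ATP synthase list has a quartile distance of 0.64, close to that of the members. The curve of all genes is flat (quartile distance 1.717).

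Libraries of the same line differed in the level of the whole set. In D17-c3 replicate 3, 64 of 73 members were above each of the other 3 libraries of the line. The median over all 73 members of the log2 difference from the mean of the other 3 libraries was 0.365. In S2-DRSC replicate 4, 63 members were above each of the other 3, and the same median was 0.217. S2-DRSC replicate 2 was the lowest of its line in 56 members and D17-c3 replicate 2 the lowest of its line in 40. This difference went with transcript length. In D17-c3 replicate 3 its median was 0.535 for the 27 members under 700 bases and 0.328 for the 46 longer ones, and in S2-DRSC replicate 4 it was 0.265 and 0.134. Spearman's rho of this deviation with length was -0.459 over the members in D17-c3 replicate 3 and -0.501 over the 6707 genes of at least 10 CPM, which share the same libraries. In S2-DRSC replicate 4 rho was -0.599 over the members and -0.447 over the same genes. The part of this in the results was not tested, and counts are given with and without these libraries.

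Without D17-c3 replicate 3, the calls were 16 for D17-c3 and 30 for S2-DRSC, with a median of -0.163. These are 21.9% and 41.1% of the members, against 38.6% and 36.8% of all genes. Shares of all genes for these fits are taken over the genes tested with all libraries. The share for S2-DRSC thus passed from below that of all genes (32.9% against 36.1% with all libraries) to above it. Calls were gained for mRpL49, mRpL54, mRpS10, mRpS11, mRpS21 and mRpS34, all higher in S2-DRSC, and lost for mRpL30, a large subunit protein. The adjusted p of mRpL30 was then 0.0567 in edgeR's quasi-likelihood test. Without S2-DRSC replicate 4 the counts were 17 and 24, or 23.3% and 32.9% against 36.7% and 35.8% of all genes, with 3 members at least 2-fold higher in each line. Without both libraries they were 17 and 28, or 23.3% and 38.4% against 37.3% and 35.7% of all genes. In that fit 1 member was past 2-fold towards D17-c3 and 6 were towards S2-DRSC.

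**Figure D3:**
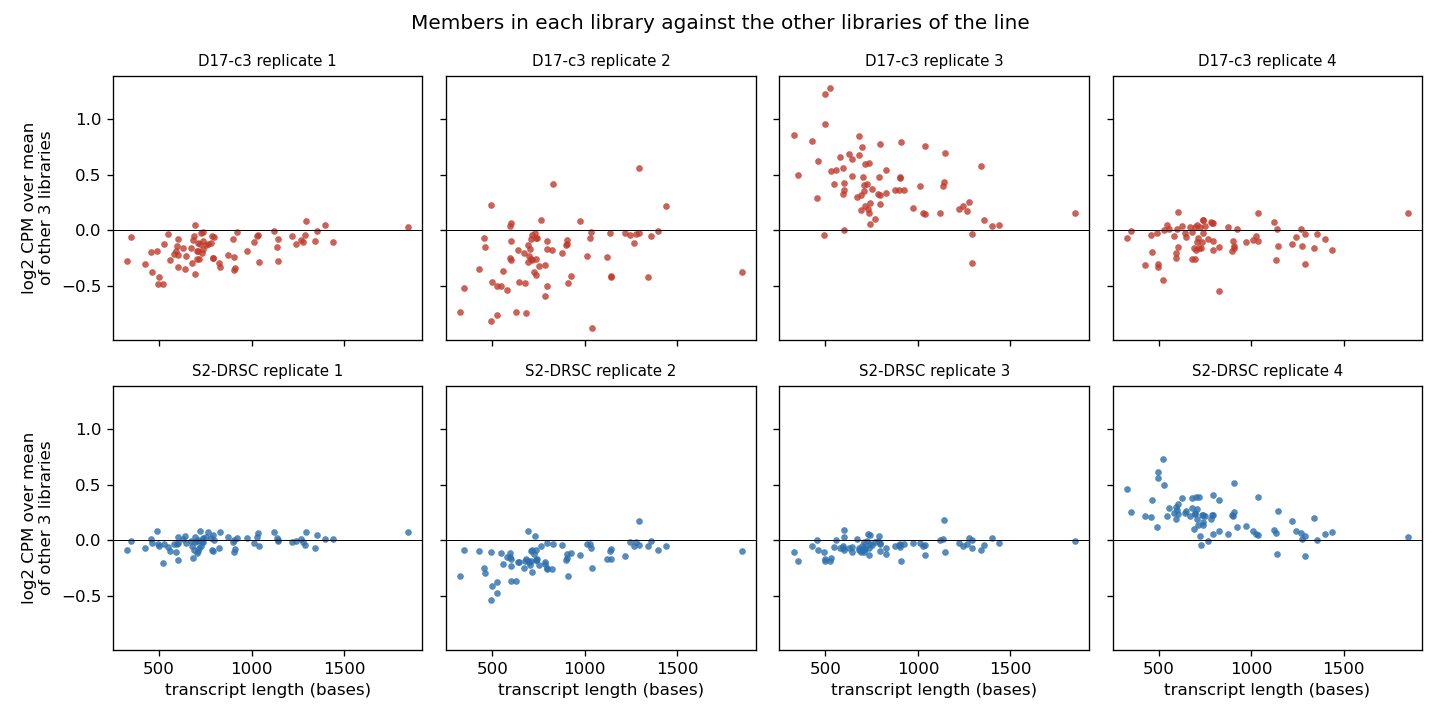
Log2 CPM of each of the 73 members in 1 library less its mean in the other 3 libraries of the line (y axis), against transcript length in bases (x axis), with 1 panel per library. In D17-c3 replicate 3 and S2-DRSC replicate 4 most points lie above 0, with medians over all 73 members of 0.365 and 0.217. There shorter transcripts tend to lie higher (Spearman's rho -0.459 and -0.599). Some short ones do not, such as mRpS33 (491 bases) at -0.039 in D17-c3 replicate 3.

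Of the 47 large subunit genes, 9 were higher in D17-c3 (19.1%, against 39.1% of all genes), 18 were higher in S2-DRSC (38.3%, against 36.1%) and 20 were not called, with a median log2 fold change of -0.064. Of the 26 small subunit genes, 8 were called for D17-c3 (30.8%), 6 for S2-DRSC (23.1%) and 12 for neither, with a median of 0.05. The small subunit count for S2-DRSC was 10 without D17-c3 replicate 3. The difference between the subunits was not tested. The protein of mRpS18A and that of mRpS30 sit in the large subunit in mammals, and with both moved the counts were 9 and 19 for the large subunit and 8 and 5 for the small one. By origin, the 45 members of bacterial families had 9 calls for D17-c3 (20%) and 16 for S2-DRSC (35.6%), with a median of -0.044. The 28 specific to mitochondria had 8 (28.6%) for each line, with a median of -0.013. Of the 7 members past 2-fold, 6 belong to bacterial families (13.3% of the 45) and 1, mRpL46, is specific to mitochondria (3.57% of the 28). The share over all genes was 43.0%. This split depends on the cutoff, since mRpL16 and mRpL35 (both -1.02) and mRpL46 (1.01) lay just past it. Just short of it lay mRpL20 (0.99), of a bacterial family, and mRpS25 (-0.98), specific to mitochondria. The difference by origin was not tested.

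Among the large subunit genes, 4 were at least 2-fold higher in S2-DRSC. The gene mRpL17 (3L:264779-265932, plus strand) encodes a member of the bacterial L17 family, which lies by the exit of the peptide tunnel. Its levels in D17-c3 replicates 1 to 4 were 12.2, 9.12, 15.9 and 12.98 CPM, and in S2-DRSC 30.9, 29.1, 32.9 and 36.2 CPM. Every S2-DRSC library lay above every D17-c3 library. The log2 fold change was -1.36 ± 0.16 (adjusted p = 3.26e-05, edgeR's quasi-likelihood test with Benjamini-Hochberg adjustment), which is 2.57-fold. A gene on the opposite strand that overlaps it, CG34263, was at 0.211 CPM in D17-c3 and 0.559 CPM in S2-DRSC.

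mRpL14 (X:2343997-2344649, minus strand) encodes the L14 protein, which faces the small subunit. It gave 13.2, 11.6, 20.4 and 14.4 CPM in D17-c3 and 37.1, 34.0, 36.4 and 43.0 CPM in S2-DRSC. The groups did not overlap, and D17-c3 replicate 3 was the highest of its line. Its log2 fold change was -1.34 ± 0.17 (adjusted p = 5.64e-05 by edgeR).

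mRpL16 (X:1890256-1891482, plus strand) encodes a protein that lies by the tRNA sites and the peptidyl transferase centre of the ribosome. It was at 24.3, 23.7, 30.4 and 22.99 CPM in D17-c3 and at 50.9, 46.7, 50.2 and 57.8 CPM in S2-DRSC. Its log2 fold change was -1.02 ± 0.11 (adjusted p = 1.61e-05 by edgeR), and all S2-DRSC libraries were above all D17-c3 libraries. It overlaps arm, the gene of beta-catenin, on the opposite strand, which was not called (-0.19 ± 0.10). mRpL35 (3R:22023527-22024341, plus strand), of the bacterial L35 family, had the same log2 fold change, -1.02 ± 0.12, with means of 11.4 ± 1.76 CPM in D17-c3 and 23.2 ± 2.19 CPM in S2-DRSC. Its overlapping partner on the opposite strand, CG6028, went the other way (0.65 ± 0.13). mRpL21, a protein of the bacterial L21 family, had 14.4 ± 4.45 CPM in D17-c3 and 26.5 ± 4.13 CPM in S2-DRSC (-0.87 ± 0.20), and its lines did not overlap.

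In the other direction, mRpL46 (3L:1777439-1778347, plus strand) encodes a large subunit protein specific to mitochondria. Its levels were 34.9, 32.4, 61.2 and 38.9 CPM in D17-c3 and 19.9, 17.5, 18.8 and 26.8 CPM in S2-DRSC. The lines did not overlap, and D17-c3 replicate 3 and S2-DRSC replicate 4 were the highest of their lines. The log2 fold change was 1.01 ± 0.21 (adjusted p = 0.00183 by edgeR), a 2.02-fold difference, so it crosses the 2-fold line in some settings and not in others.

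mRpL20 (3L:13017149-13017867, minus strand) encodes a member of a family needed to assemble the large subunit in bacteria. Its levels were 13.1, 16.2, 18.7 and 14.5 CPM in D17-c3 and 7.77, 6.496, 7.997 and 9.30 CPM in S2-DRSC. The groups were apart, with a log2 fold change of 0.99 ± 0.15 (adjusted p = 0.000169 by edgeR), just under 2-fold.

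The next large subunit genes higher in D17-c3 were mRpL43, mRpL53 and mRpL33. mRpL43, specific to mitochondria, was at 24.7 ± 3.51 CPM against 15.6 ± 1.33 CPM (0.66 ± 0.12). Its overlapping partner on the opposite strand, sigmar, moved the same way (0.77 ± 0.11), and the sources used here do not say whether reads were counted by strand. mRpL53 (0.60 ± 0.16) shares its strand with the overlapping CG33155, whose log2 fold change was also 0.60 ± 0.16, at 25.5 and 16.8 CPM against 23.1 and 15.3 CPM for mRpL53, and how their reads were divided was not tested. mRpL33 was at 22.4, 17.4, 29.7 and 23.02 CPM in D17-c3 and 15.8, 15.2, 14.4 and 18.1 CPM in S2-DRSC (0.54 ± 0.15). Its lines overlapped by 1 pair, D17-c3 replicate 2 and S2-DRSC replicate 4, and it was called in all 18 alternatives.

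Among the small subunit genes, mRpS5 (3L:24537236-24543534, plus strand) had the largest difference towards S2-DRSC. Its protein belongs to the S5 family, which lies where the message enters the small subunit. The levels were 100.6, 136, 87.8 and 87.4 CPM in D17-c3 and 262, 293, 268 and 249 CPM in S2-DRSC. All S2-DRSC libraries were above all D17-c3 libraries, and D17-c3 replicate 2, not 3, was the highest of its line. The log2 fold change was -1.38 ± 0.14 (adjusted p = 1.34e-05, edgeR's quasi-likelihood test), or 2.61-fold.

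mRpS25, a small subunit protein specific to mitochondria, was at 11.2, 12.3, 17.2 and 13.3 CPM in D17-c3 and 27.1, 23.9, 25.1 and 30.1 CPM in S2-DRSC (-0.98 ± 0.14). Its lines were apart, and its opposite-strand partner CG14414 was not called (-0.01 ± 0.09). mRpS7, of a family in the head of the small subunit, was at 38.96 ± 3.38 CPM against 53.8 ± 1.02 CPM (-0.47 ± 0.07). mRpS2 was at 19.0 ± 3.10 CPM against 25.5 ± 1.32 CPM (-0.43 ± 0.12), a call that was lost in 3 alternatives. The adjusted p was 0.0532 with library totals only (edgeR), and 0.0665 on log2(TPM + 0.1) and 0.0594 on log2(TPM + 1) (limma), where the log2 fold change was -0.19 on both scales. mRpS14 was called at -0.62 ± 0.25 (adjusted p = 0.0464 by edgeR), but its lines overlapped and the call was kept in 9 of 18 alternatives. Its D17-c3 replicates gave 7.34, 7.15, 14.5 and 7.83 CPM, so replicate 3 alone reached into the S2-DRSC range of 11.4 to 18.7 CPM. mRpS14 also overlaps CG32533 on its own strand, which was higher in D17-c3 (0.72 ± 0.07).

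The small subunit gene with the largest difference towards D17-c3 was mRpS18C (3R:30423974-30424556, plus strand), at 1.36 ± 0.20 (adjusted p = 0.000178 by edgeR). It gave 6.79, 5.52, 9.45 and 7.26 CPM in D17-c3 and 2.79, 2.32, 2.61 and 3.62 CPM in S2-DRSC, with no overlap. It overlaps CG15536 on the opposite strand, which was 13.8 CPM in D17-c3 and 1.49 CPM in S2-DRSC, a log2 fold change of 3.21 ± 0.18. The part of CG15536 in the difference of mRpS18C was not tested. The S18 family has 3 members in the fly, and the others differed less. mRpS18B was called higher in D17-c3 at 0.29 ± 0.07, with 26.9 ± 1.56 CPM against 21.99 ± 0.597 CPM and no overlap. mRpS18A was not called, at 20.6 ± 5.58 CPM against 19.3 ± 1.78 CPM (0.09 ± 0.17, adjusted p = 0.645 by edgeR). Neither mRpS18A nor mRpS18B overlaps another gene.

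Other small subunit genes higher in D17-c3 differed by at most 1.41-fold. mRpS31, specific to mitochondria, was the first of them at 46.8 ± 4.48 CPM against 33.2 ± 0.352 CPM (0.50 ± 0.08). Its opposite-strand partner mib1 also was higher in D17-c3 (0.60 ± 0.10). mRpS23, mRpS28 and mRpS17 followed with log2 fold changes of 0.38 ± 0.11, 0.33 ± 0.09 and 0.33 ± 0.08, and their lines did not overlap. mRpS17 has no overlapping gene, whereas CG10927, opposite to mRpS28, was higher in S2-DRSC (-0.59 ± 0.11).

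**Figure D4:**
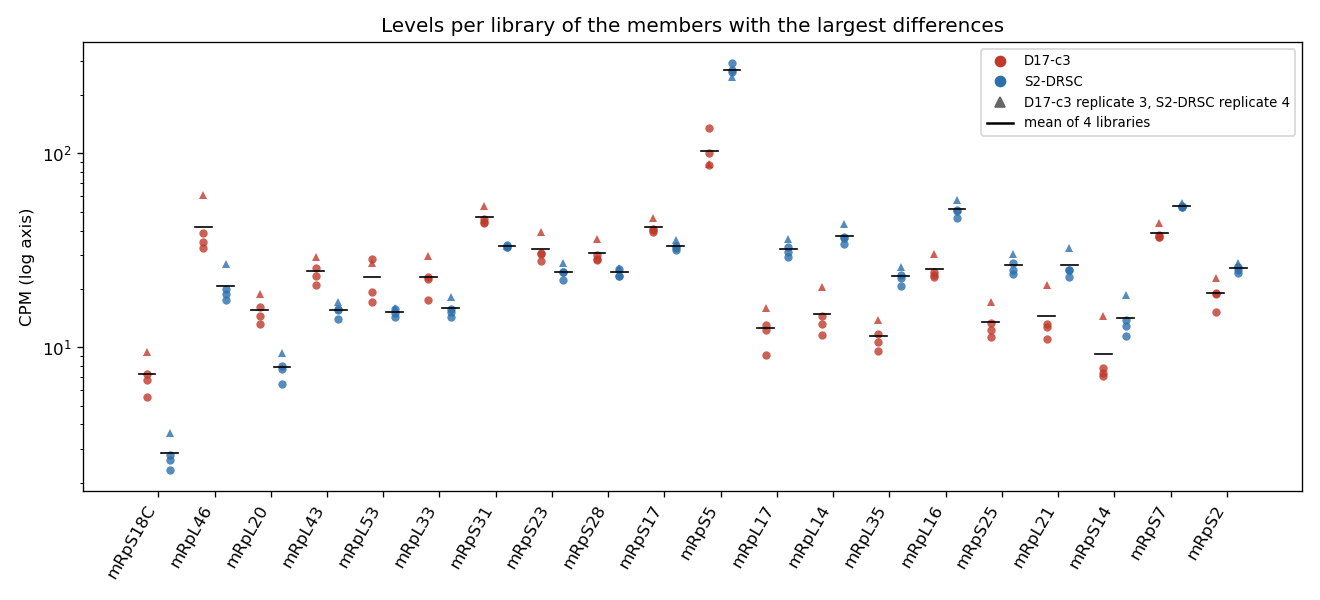
CPM on a log axis (y) in each library of the 5 called members with the largest fold change per direction and subunit (x), D17-c3 red and S2-DRSC blue, with black bars for the mean of 4 libraries. Triangles mark D17-c3 replicate 3 and S2-DRSC replicate 4, which are the top of their line in most genes. The lines are apart for 18 of the 20 genes, and overlap for mRpL33 and mRpS14.

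Levels were compared between members per transcript length, as TPM, transcripts per 1000000 transcripts. Mean TPM of the members ran from 24.5 to 179 in D17-c3 (median 55.3) and from 9.38 to 278 in S2-DRSC (median 51.6). In each line 67 of the 73 members lay within 2-fold of that median. Across the 73 genes the TPM of the lines had a Spearman rho of 0.674 and a Pearson r of 0.677 on log2 values, given as a description, since the genes share libraries. mRpL33, whose bacterial relative lies by the tRNA exit site, had the highest TPM in D17-c3 (179) and the third place in S2-DRSC (104). mRpS5 had the highest TPM in S2-DRSC (278) and the third place in D17-c3 (136).

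Close below came mRpL12, the stalk protein that binds translation factors, with 113 TPM in D17-c3 and 124 TPM in S2-DRSC. By CPM it was called higher in S2-DRSC (-0.38 ± 0.09), and the call was lost in 3 alternatives. With library totals only the log2 fold change was -0.21 (adjusted p = 0.0543 by edgeR). On log2(TPM + 0.1) and log2(TPM + 1) it was -0.13 on both, with adjusted p-values of 0.183 and 0.165 by limma. mRpL39, specific to mitochondria, was at 139 and 84.9 TPM, and its CPM was higher in D17-c3 (0.47 ± 0.10), while its opposite-strand partner Zip71B was higher in S2-DRSC (-2.03 ± 0.16). mRpL23, of a family at the tunnel exit, was at 132 and 83.8 TPM and also higher in D17-c3 by CPM (0.40 ± 0.10), as was its opposite-strand partner CG8993 (0.53 ± 0.10).

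The lowest mean TPM over all 8 libraries belonged to mRpS18C, with 28.3 TPM in D17-c3 and 9.38 TPM in S2-DRSC, although in D17-c3 alone it was number 70 of 73 and mRpL54 was the last. It was followed by mRpL54, at 24.5 and 25.9 TPM, and mRpS6, at 36.4 and 26.3 TPM, neither of which was called. mRpS6 was called higher in D17-c3 in 4 alternatives, at 0.27 with the filter of 1 CPM, 0.38 with library totals only, 0.46 on log2(TPM + 0.1) and 0.45 on log2(TPM + 1). mRpL11, which forms the base of the stalk, was at 40.5 and 23.9 TPM, and its CPM was higher in D17-c3 (0.53 ± 0.16). mRpL48, specific to mitochondria, was at 29.5 and 35.3 TPM, and its CPM was higher in S2-DRSC (-0.50 ± 0.11), whereas its opposite-strand partner frtz was higher in D17-c3 (1.25 ± 0.07). The place of some genes in the order changed between lines. mRpL14 was number 54 by TPM in D17-c3 and number 5 in S2-DRSC, and mRpL17 went from 71 to 25. mRpL46 was number 20 in D17-c3 and number 66 in S2-DRSC.

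**Figure D5:**
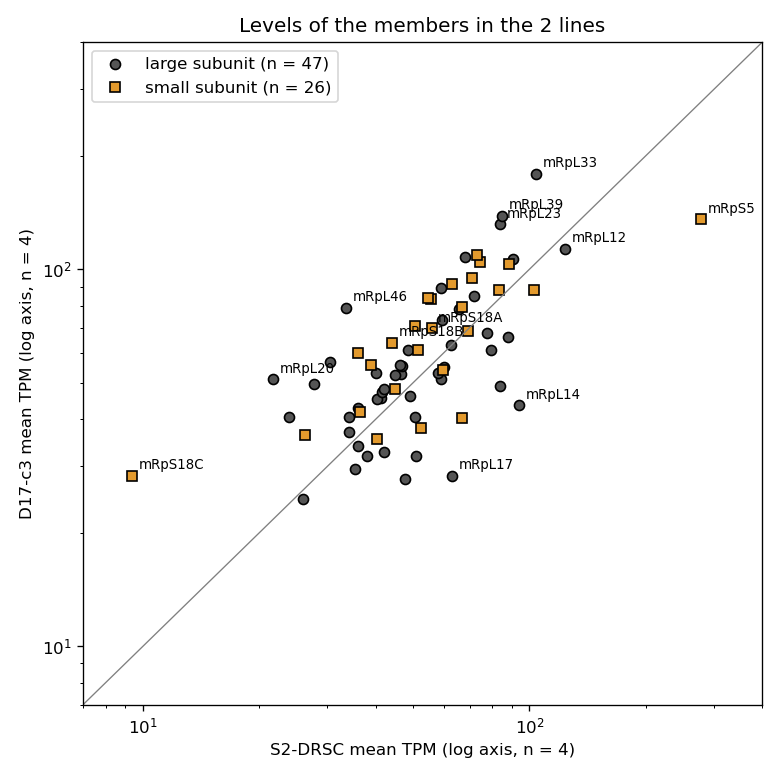
Mean TPM of each member in D17-c3 (y) against S2-DRSC (x), both on log axes, n = 4 libraries per line, with the line of equality. Most genes lie in a cloud around 50 TPM, mRpS18C stands apart at 28.3 and 9.38 TPM, and mRpS5 at 136 and 278 TPM.

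The members together took 4385, 4643, 5088 and 4637 TPM in D17-c3 replicates 1 to 4 and 4360, 3963, 4303 and 4530 TPM in S2-DRSC, which is 0.396% to 0.509% of the total. The ranges of the lines overlap. The small subunit sum was 0.59 to 0.695 of the large subunit sum over the 8 libraries. Cytosolic ribosomal proteins summed to 62.0 to 85.8 times the members in D17-c3 and to 96.9 to 109.2 times in S2-DRSC, so every S2-DRSC library had the higher ratio. TPM adds to 1 total per library, so a larger cytosolic share lowers the TPM of other genes, and differences between lines are taken from CPM here.

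The cytosolic ribosomal proteins, listed by symbol, gave 4 genes higher in D17-c3 and 47 higher in S2-DRSC of 90 tested, with a median of -0.43. These are 4.44% and 52.2%, against 39.1% and 36.1% of all genes. The share called was 56.7% and the quartile distance 0.56, close to the 56.2% and 0.648 of the members. Without D17-c3 replicate 2 the count for D17-c3 was 9. The leaders of this list were RpL37a (-2.14 ± 0.09) and RpS19b (-1.82 ± 0.23) towards S2-DRSC, and the paralogs RpL22-like (3.59 ± 0.67) and RpS5b (3.10 ± 0.28) towards D17-c3. RpL37a was at 732 CPM in D17-c3 and 3229 CPM in S2-DRSC, but RpS19b was at only 5.62 and 19.9 CPM. RpS5b was likewise low, at 8.63 and 1.01 CPM, and RpL22-like was near the floor, at 1.52 and 0.127 CPM. The list of nuclear respiratory chain and ATP synthase genes gave 17 and 21 calls of 69 tested (24.6% and 30.4%), with a median of -0.077. Many of these subunits assemble with the proteins that mitochondrial ribosomes make. The share called was 55.1% and the quartile distance 0.64, so these traits of the members were shared by both lists. The list was drawn by symbol, and it also holds genes such as SdhBL beside SdhB. In that list 12 genes were at least 2-fold apart (17.4%, against 9.59% of the members and 43.0% of all genes). They were led by ATPsynepsilonL (6.01 ± 0.32) and SdhBL (4.27 ± 0.50) towards D17-c3 and ATPsyngamma (-1.80 ± 0.15) and ND-B18 (-1.79 ± 0.14) towards S2-DRSC. SdhBL was near the floor, at 0.497 CPM in D17-c3 and 0.0237 CPM in S2-DRSC, and ATPsynepsilonL was at 38.3 and 0.595 CPM. How far genes of this kind raise the 17.4% was not tested. The differences between the lists were not tested.

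Mitochondrial ribosomal proteins named otherwise were read beside the members. tko, which encodes the S12 protein of the decoding site and whose mutants are sensitive to mechanical shock, was higher in S2-DRSC, at 16.9 ± 4.27 CPM against 25.3 ± 3.75 CPM (-0.58 ± 0.18, adjusted p = 0.0146 by edgeR). bonsai, the S15 protein, was not called, at 37.3 ± 1.64 CPM against 38.1 ± 1.56 CPM (-0.03 ± 0.06).

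Of 9 mitochondrial translation factors, 2 were called for D17-c3 (22.2%) and 4 for S2-DRSC (44.4%), with a median of -0.049. The shares over all genes were 39.1% and 36.1%. In this list 66.7% were called, against 75.2% of all genes. The initiation factors went opposite ways. mIF3 was higher in D17-c3 (1.53 ± 0.30), where its libraries ranged from 25.5 to 72.4 CPM against 13.7 to 14.6 CPM, and mIF2 was higher in S2-DRSC (-1.34 ± 0.07). The elongation factor gene mEFTu2 was the other one higher in D17-c3 (0.37 ± 0.08). The recycling factor mRRF2 (-1.09 ± 0.08), the release factor mRF1 (-1.07 ± 0.09) and the elongation factor mEFG1 (-0.91 ± 0.06) were higher in S2-DRSC. Of 18 genes listed for mitochondrial aminoacyl-tRNA synthetases, 5 were higher in D17-c3, led by MetRS-m (0.61 ± 0.13) and ProRS-m (0.55 ± 0.09). Another 7 were higher in S2-DRSC, led by CysRS-m (-1.14 ± 0.07) and LysRS (-1.04 ± 0.05), and the median was -0.126. These are 27.8% and 38.9% of the list, with 66.7% called in either direction, against the same shares of all genes. LysRS, and GlyRS among the 5, each encode both the cytosolic and the mitochondrial enzyme, so their values are not those of a mitochondrial synthetase alone. LeuRS-m (-1.03 ± 0.10) was the next of the mitochondrial ones.

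Of 12 genes that maintain or express mitochondrial DNA, 1 was called for D17-c3 (8.33%) and 4 for S2-DRSC (33.3%), with a median of -0.089. The shares over all genes were 39.1% and 36.1%. The 4 were led by mtRNApol, the mitochondrial RNA polymerase, at 53.7 ± 4.78 CPM against 155 ± 2.90 CPM (-1.52 ± 0.07), and by mtSSB, the single-strand binding protein (-0.75 ± 0.22). SLIRP1 and SLIRP2 were the others higher in S2-DRSC, and the gene higher in D17-c3 was mtDNA-helicase (0.26 ± 0.11, adjusted p = 0.0479 by edgeR). That call was lost without D17-c3 replicate 3 and without each of the 4 S2-DRSC libraries in turn. Of 18 assembly factor symbols looked up, 3 were matched. mtTFB1, which methylates the small subunit RNA, was higher in D17-c3 (0.54 ± 0.10), and Letm1 (-0.43 ± 0.07) and OXA1L (-0.36 ± 0.10), inner membrane proteins, were higher in S2-DRSC. RNAs of the mitochondrial genome were not analysed here.

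Among 10 regulators known to act on growth or mitochondrial genes, 2 were called for D17-c3 (20%) and 5 for S2-DRSC (50%), with a median of -0.17. The shares over all genes were 39.1% and 36.1%. In this list 70% were called, against 75.2% of all genes. Myc, which drives ribosome production in the fly, was at 118 ± 12.5 CPM in D17-c3 and 438 ± 12.2 CPM in S2-DRSC (-1.89 ± 0.09). Its partner Max was also higher in S2-DRSC (-1.17 ± 0.12), and Mnt, which opposes Myc, was higher in D17-c3 (1.35 ± 0.08). The PGC-1 homolog srl (-0.82 ± 0.09), Ets97D (-0.32 ± 0.06), homolog of a GABP subunit, and Dref (-0.29 ± 0.08) were higher in S2-DRSC, and ewg, homolog of NRF-1, was higher in D17-c3 (0.66 ± 0.11). The calls of Ets97D and Dref were lost on log2(TPM + 0.1), with adjusted p-values of 0.479 and 0.609 by limma, and on log2(TPM + 1), with 0.467 and 0.599. Dref was also not called with library totals only (adjusted p = 0.162 by edgeR). ERR, crc and foxo were not called (0.00 ± 0.09, -0.05 ± 0.13 and 0.14 ± 0.07), although foxo was called higher in D17-c3 in 5 of the alternatives. No relation of these genes to the members was tested.

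By chromosome arm, the 11 members on the X had 2 calls for D17-c3 and 7 for S2-DRSC (63.6%), with a median of -0.381. Over all 1934 X genes tested the median was 0.017, and 39% were called for D17-c3 and 37.6% for S2-DRSC. The 12 members on 2R had 5 and 2 calls (median 0.134), where 36.6% and 38.0% of all genes of the arm were called. The 17 on 3L had 5 and 4 calls (0.052), with 43.4% and 33.6% of all genes of that arm. The 12 on 2L had 2 and 4 calls (0.002), with 41.2% and 33.0%, and the 21 on 3R had 3 and 7 (-0.064), with 36.1% and 37.6%. The median over all genes of these autosomal arms lay between -0.025 and 0.136. The difference between arms was not tested. Of the 73 members, 43 overlap another annotated gene, 42 of them a gene on the opposite strand and 3 one on the same strand.

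Of the members, 55 have 1 annotated transcript and so a fixed length, and 18 have several. Of these 18, 0 had mean transcript lengths that differed by 10% or more with lines that did not overlap. The largest difference was that of mRpS5, at -4.955% in D17-c3 against S2-DRSC. Over all genes tested the share meeting the rule was 2.87%. That share also counts genes with 1 transcript, so it is no like background for the 18. The count of 0 says nothing particular about the members.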

How the data were processed

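Polyadenylated RNA from 4 flasks of each of 2 lines was made into stranded libraries, per the labels' protocols. RSEM, STAR 2.7.3a, Trim Galore 0.6.4, DESeq2 1.30.1, Subread 2.0.0 and featureCounts, and the genome builds dm6 and BDGP6, are named by the submitters' processing notes without a role. Per the file headers, the authors deposited 1 table per library with expected counts, TPM and FPKM, and the FPKM values entered no test. Between 16.8% and 18.2% of the deposited expected counts were not whole, and they were rounded. Deposited TPM keeps no depth. Positions come from an Ensembl annotation of BDGP6, and mRpS5 was placed through its transcript identifiers.

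Counts were tested with edgeR 4.0.16 (quasi-likelihood test, TMM, filterByExpr, design by line, all 8 libraries), adjusted over 11606 genes. The prior degrees of freedom were 3.23 and the common biological coefficient of variation 0.187. An SE is the size of the log2 fold change divided by the root of the F statistic. CPM are counts over TMM-scaled library sizes. Alternatives were DESeq2 1.42.0, limma 3.58.1 on log2(TPM + 0.1), on log2(TPM + 1) and on TPM after TMM scaling, library totals, median-of-ratios size factors, filters, the replicate number as a block and left-out libraries. Leaving out D17-c3 replicate 3 and S2-DRSC replicate 4 together was chosen after the data were seen. The code was run on simulated data with less spread between libraries than here and no length-linked shifts. That run checks the code and not these results.

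The members, lists and the rule for named genes were chosen with earlier results of these data known. The rule named the 5 called members with the largest fold change per direction and subunit, the 5 highest and 5 lowest by TPM, the mRpS18 paralogs, members past 2-fold and, per related list, up to 2 called genes per direction with all regulators. Members gaining or losing a call, overlapping partners and further list genes were named after their values were seen. Promoter sequences were not analysed here.

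Counting error is small at these depths, and reads carry no molecular identifiers. No replicate pair agreed within sampling noise, since the lowest chi-square per degree of freedom was 8.18.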

Additional observations from a re-analysis of the deposited data

Results flagged for a closer look

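Over the 29 named members and the summed TPM of the set and of each subunit, 64 groups of 4 libraries were tested with Dixon's criterion at the 95% level. In 3 of them 1 library lay far from the other 3. Chance gives about 1 in 20 over independent groups. These groups share the same 8 libraries, so the count was not read against that rate. mRpS14 was at 14.5 CPM in D17-c3 replicate 3, where the other 3 libraries gave 7.15 to 7.83 CPM. mRpS7 was at 44.0 CPM in D17-c3 replicate 3, against 37.03 to 37.7 CPM in the others, and stayed below every S2-DRSC library. mRpL54 was at 13.5 CPM in S2-DRSC replicate 4, against 10.2 to 10.7 CPM. These are the libraries in which most of the 73 members were the highest of their line, and the causes were not tested.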

How the results depend on the processing

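Over 18 alternatives no called member changed sign. On unscaled log2(TPM + 0.1) and log2(TPM + 1), 31 members were higher in D17-c3, 17 large and 14 small. Called in either direction were 64.4% and 63.0% of the members, against 73.3% and 72.4% of all genes, whose medians were 0.251 and 0.179. On log2(TPM + 1), 15 members were higher in S2-DRSC, 3 of them small, and 8 genes of the synthetase list were higher in D17-c3. The members' median was 0.204 and 0.202 on these scales. They also gave 5 translation factors, 4 genes of mitochondrial DNA expression and 28 and 31 respiratory chain genes for D17-c3, and 10 respiratory chain genes, 3 regulators and 0 assembly factors for S2-DRSC. There bonsai was called the other way, at 0.215 and 0.212. Library totals only gave 13 small subunit members, 4 translation factors and 4 genes of mitochondrial DNA expression for D17-c3, and 12 respiratory chain genes and 1 assembly factor for S2-DRSC. These scales moved the median of all genes by over 0.1; the cause of each further shift was not tested. A filter of 1 CPM gave 2 cytosolic ribosomal proteins and 4 genes of mitochondrial DNA expression for D17-c3, and DESeq2 gave 2 of the latter. Members at least 2-fold higher in S2-DRSC were 3 with that filter, totals only or unscaled TPM. Members at least 2-fold higher in D17-c3 were 1 with TPM after TMM scaling, no filter, the replicate block, or both highest libraries left out. In the last 3 settings, 0 genes of mitochondrial DNA expression were higher in D17-c3.

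With 1 library left out, the members at least 2-fold higher were 1 to 3 for D17-c3 and 3 to 7 for S2-DRSC. Small subunit members higher in S2-DRSC were 5 to 10, the 10 without D17-c3 replicate 3. Genes of mitochondrial DNA expression higher in D17-c3 were 0 to 2, and cytosolic ribosomal proteins 4 to 9.

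Same-numbered libraries of the lines correlated at 0.011, 0.115, -0.039 and 0.052 in their deviations from the line means. For D17-c3 replicates 2 and 4 these were the highest values with any S2-DRSC library. Replicates 1 and 3 reached 0.072 and 0.164 with another number. These small values show no clear pairing by number and do not exclude one. With the replicate block, the calls were 15 for D17-c3 and 24 for S2-DRSC, or 53.4% of the members against 74.2% of all genes. At 4 flasks a line, differences under 1.5-fold were called for some members and not for others, so a missing call does not show equal levels.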
